A study of Mus musculus with 26 samples.

Results

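Atp2a2, Slc8a1, Calr, Asph and Rcan1 are 5 genes of calcium handling and calcineurin signalling, and every probe set annotated to one of them alone was followed through 13 mouse embryonic hearts. They have 8 probe sets, 4 on each of 2 oligonucleotide array designs called A and B, among 6137 genes on 7561 probe sets that carry a single gene symbol. Total RNA was taken from whole hearts at embryonic day 12.5, and each heart was run on 1 A and 1 B array, 26 arrays in all. The mice carry a deletion of the NK2-specific domain, a conserved stretch outside the homeodomain, in the cardiac transcription factor Nkx2.5. Hearts labelled 1, 2, 7, 9 and N1 were wild-type (5 in all), those labelled 5, 6, 12 and N2 were heterozygous for this deletion (4), and those labelled 3, 4, 8 and N3 were null (4). No litter, sex or strain background is given in the labels, so p-values measure only the spread between these hearts, and expression of Nkx2-5 itself was not analysed here.

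In a beating heart cell, calcium is released from the sarcoplasmic reticulum for each contraction and is then cleared from the cytosol. Atp2a2 encodes SERCA2, the pump that returns calcium to the sarcoplasmic reticulum, and Slc8a1 encodes NCX1, the exchanger that moves calcium out across the surface membrane in return for sodium. Calr encodes calreticulin, a calcium-binding chaperone of the endoplasmic reticulum lumen that is abundant in the embryonic heart, is needed for heart development in mice and has been reported as a target of Nkx2.5. The Asph locus produces an aspartyl/asparaginyl beta-hydroxylase and also junctin and junctate, membrane proteins that lie beside calcium release channels. Rcan1 encodes an inhibitor of calcineurin, the calcium-activated phosphatase that sends NFAT transcription factors to the nucleus, and in heart muscle it is itself induced by calcineurin and NFAT from an internal start, which makes it a commonly used readout of that pathway.

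In GRCm38.p6 coordinates Atp2a2 lies at chr5:122453513-122502225, Slc8a1 at chr17:81373105-81738387, Calr at chr8:84842088-84846931, Asph at chr4:9449085-9669344 and Rcan1 at chr16:92391951-92466169. The sequences around the starts of Rcan1 and Calr are shown because Rcan1 was the one of the 5 genes whose null hearts lay apart from both other genotypes and Calr is the reported Nkx2.5 target. Each is the RefSeq window from 250 bases before to 50 bases after an annotated start, on the minus strand, written 5′ to 3′. Capitals mark the NFAT core GGAAA or its reverse complement TTTCC. The first Rcan1 start has the window chr16:92466120-92466419, the internal start has the window chr16:92400029-92400328 and lies 66091 bases downstream, and the Calr window is chr8:84846882-84847181.
Rcan1, first start: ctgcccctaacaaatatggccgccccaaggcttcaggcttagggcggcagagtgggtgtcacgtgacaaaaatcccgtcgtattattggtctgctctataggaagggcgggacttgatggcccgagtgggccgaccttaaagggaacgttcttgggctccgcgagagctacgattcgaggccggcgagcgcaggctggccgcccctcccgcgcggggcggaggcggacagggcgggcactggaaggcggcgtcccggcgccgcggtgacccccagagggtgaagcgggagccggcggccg
Rcan1, internal start: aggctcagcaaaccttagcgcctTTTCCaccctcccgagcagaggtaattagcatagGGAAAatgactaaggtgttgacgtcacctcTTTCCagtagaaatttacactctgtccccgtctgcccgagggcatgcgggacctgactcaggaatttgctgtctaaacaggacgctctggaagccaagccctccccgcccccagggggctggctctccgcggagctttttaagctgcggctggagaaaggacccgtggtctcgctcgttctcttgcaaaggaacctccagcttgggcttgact
Calr: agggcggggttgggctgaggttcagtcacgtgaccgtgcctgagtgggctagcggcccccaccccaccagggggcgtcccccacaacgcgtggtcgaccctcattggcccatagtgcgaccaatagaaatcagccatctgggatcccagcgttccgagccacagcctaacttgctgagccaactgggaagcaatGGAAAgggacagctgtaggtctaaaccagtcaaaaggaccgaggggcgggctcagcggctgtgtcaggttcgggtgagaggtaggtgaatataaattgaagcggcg
The internal Rcan1 window holds 3 copies of the NFAT core and the window of the first start holds 0. The Calr window holds 1, and so does the Slc8a1 window at chr17:81738338-81738637. Of 32851 RefSeq windows of the same length, 61.3% hold at least 1 copy on either strand and 26.7% hold 2 or more. The share that holds 3 or more was not counted. The core AAGTG, to which NK2-class homeodomains bind, was found on neither strand of these 4 windows, and 46.4% of all windows hold it. These are matches of letters only. The sources used here do not give which Rcan1 transcript the probe set detects.

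Of the 8 probe sets, 6 were bright enough to test. The deposited signal is a linear intensity that includes negative values, and the sources used here do not give how background was treated. A floor was set at 2 times the noise of the negative values, 887 on A arrays and 1373 on B arrays. Testing required a signal over the floor on 4 or more arrays and 2 or more values in every genotype, and 4494 probe sets on both designs met this. The Slc8a1 probe set aa106518_at exceeded the floor in 1 of 13 hearts, heterozygous heart 12 at 962, and the Calr probe set x14926_s_at in 0 of 13, with signals of -168 to 138. Both genes were therefore described from their brighter probe sets.

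**Figure D1:**
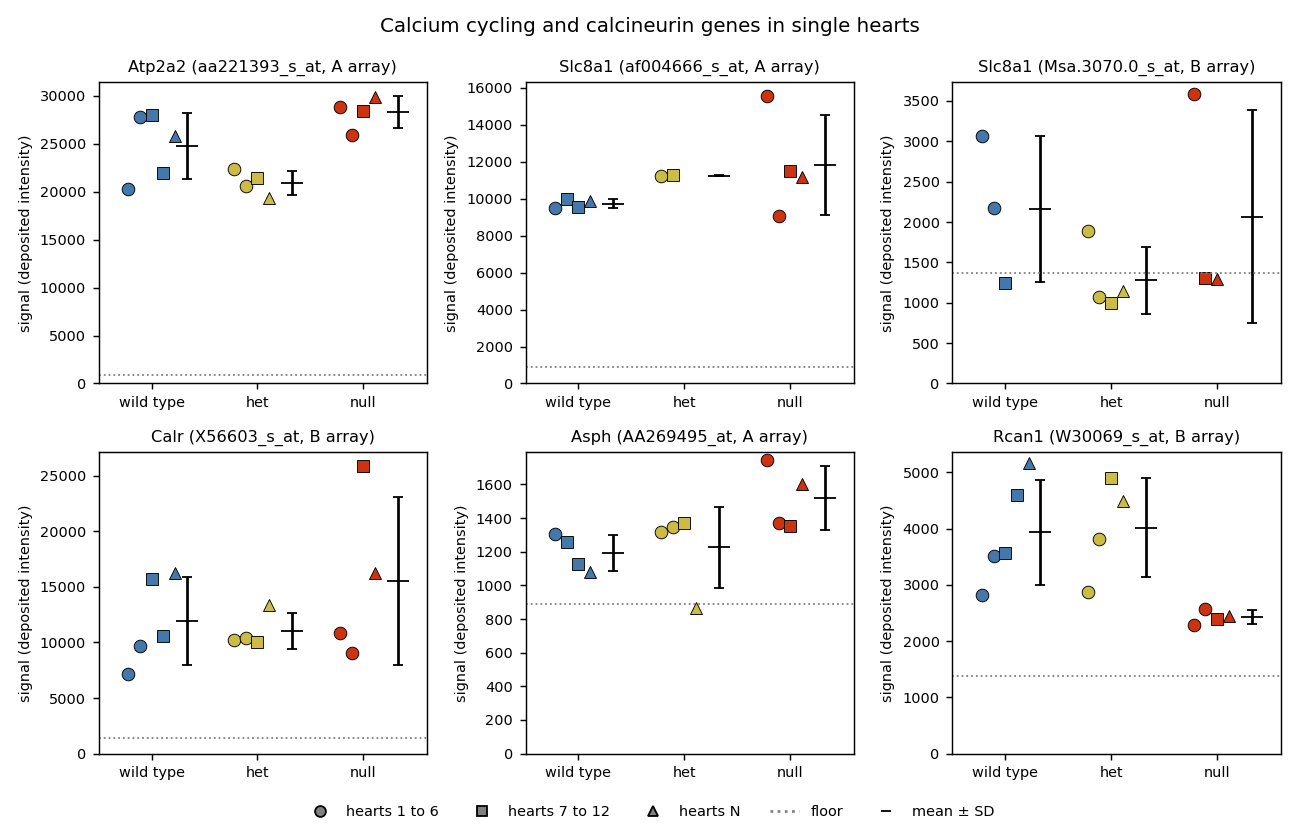
Deposited signal (vertical axis, linear intensity) of the 6 tested probe sets in each heart with a value, by genotype, with the group mean ± SD beside the points and the floor as a dotted line. All 4 Rcan1 signals of null hearts lie between 2280 and 2575, below the 9 other hearts, and the null Atp2a2 signals lie above the heterozygous ones.

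Rcan1 was lower in null hearts than in both other genotypes. Probe set W30069_s_at read 2822, 3516, 3563, 4592 and 5163 in wild-type hearts 1, 2, 7, 9 and N1. It read 2878, 3814, 4894 and 4487 in heterozygous hearts 5, 6, 12 and N2. In null hearts 3, 4, 8 and N3 it read 2280, 2575, 2398 and 2447. Every null heart was below every other heart, and the null hearts lay much closer together than those of the other genotypes. The means were 3931.2 ± 934 (SD, n = 5) in wild-type, 4018.1 ± 881 (SD, n = 4) in heterozygous and 2425.1 ± 122 (SD, n = 4) in null hearts. The coefficient of variation was 23.8%, 21.9% and 5.02% in that order.

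The log2 difference of Rcan1 between null and wild-type hearts was -0.67 ± 0.21 (SE, 95% interval -1.11 to -0.22), a signal 1.59-fold higher in wild-type hearts. Its unadjusted p in limma's moderated test was 0.00626, the 12th smallest of 4494, and the Benjamini-Hochberg adjusted p was 0.9999. Against heterozygous hearts the difference was -0.70 ± 0.22 (SE, 95% interval -1.17 to -0.23), 1.63-fold, with a limma p of 0.00626 before and 0.7744 after adjustment. Neither difference passed the adjusted threshold of 0.05. Heterozygous and wild-type hearts overlapped, with a difference of 0.04 ± 0.21 (SE) whose 95% interval runs from -0.41 to 0.48. Shares were taken over the tested probe sets with 3 or more values in each group compared. In 1% all null hearts were below all wild-type hearts, in 1.99% below all heterozygous hearts, and in 0.197% (6 of 3048) below both. Rcan1 showed the last pattern. The genes and tests were chosen with earlier results of these data known, so these shares are descriptions only. The wild-type hearts 9 and N1, which gave the highest wild-type signals, and null heart 3 were measured on B arrays that lack most of their values, and without the mostly blank arrays the null minus wild-type difference was -0.41.

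Atp2a2 was highest in null hearts, intermediate in wild-type hearts and lowest in heterozygous hearts. Probe set aa221393_s_at read 20293, 27754, 27974, 21966 and 25791 in wild-type hearts 1, 2, 7, 9 and N1. It read 22312, 20597, 21426 and 19380 in heterozygous hearts 5, 6, 12 and N2, and 28848, 25923, 28451 and 29850 in null hearts 3, 4, 8 and N3. Null and heterozygous hearts did not overlap, and the wild-type hearts spread across both. The means were 24756 ± 3470 (SD, n = 5) in wild-type, 20929 ± 1250 (SD, n = 4) in heterozygous and 28268 ± 1670 (SD, n = 4) in null hearts.

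The log2 difference of Atp2a2 between null and heterozygous hearts was 0.43 ± 0.13 (SE, 95% interval 0.16 to 0.70), or 1.35-fold, with a limma p of 0.00349, the 13th smallest of 4494, and an adjusted p of 0.7744. All null hearts were above all heterozygous hearts in 2.74% of the probe sets compared in this way. Null hearts differed from wild-type hearts by 0.20 ± 0.12 (limma adjusted p = 0.9999) and heterozygous from wild-type hearts by -0.23 ± 0.12 (limma adjusted p = 0.9814), so neither neighbour in that order passed the test against wild type. The first of these was 0.132 without wild-type heart 1, whose A array was mostly blank. Atp2a2 is among the brightest probe sets, and the 373 probe sets of mean log2 signal 14 to 17 had a median difference of 0.153 between null and wild-type hearts and 0.11 between null and heterozygous hearts, against -0.0063 and 0.019 over all probe sets. With quantile scaling of the arrays the Atp2a2 differences became -0.05 between null and wild-type hearts and -0.02 between null and heterozygous hearts. With quantile scaling after removal of the mostly blank arrays, these differences were 0.04 and 0.39. On A, the arrays removed were those of wild-type heart 1 and heterozygous hearts 6 and N2. The log2 ratio of the 3′ to the 5′ Gapdh control probe sets on the A arrays was -0.05 to 0.10 in heterozygous hearts, above its range of -0.176 to -0.101 in null hearts and of -0.261 to -0.08 in wild-type hearts, and its part in the Atp2a2 differences was not tested.

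The 2 readable probe sets of Slc8a1 did not order the hearts alike. On the A arrays, af004666_s_at read 9474, 9987, 9561 and 9884 in wild-type hearts 2, 7, 9 and N1, 11228 and 11271 in heterozygous hearts 5 and 12, and 15566, 9084, 11504 and 11166 in null hearts 3, 4, 8 and N3, with blank cells in the 3 other hearts. Only 2 heterozygous hearts had a value, too few to count as groups that do not overlap, and the null hearts held both the lowest and the highest signal. The null minus wild-type difference was 0.26 ± 0.15 (SE, limma adjusted p = 0.9999), and it was 0.115 without null heart 3. The heterozygous minus wild-type difference was 0.21 ± 0.19 (SE, limma adjusted p = 0.9814) and the null minus heterozygous difference 0.05 ± 0.19 (SE, limma adjusted p = 0.9754).

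On the B arrays, the Slc8a1 probe set that could be tested was close to the floor. It read 3063, 2169 and 1248 in wild-type hearts 1, 2 and 7, then 1892, 1076, 1000 and 1151 in heterozygous hearts 5, 6, 12 and N2, and 3588, 1306 and 1295 in null hearts 4, 8 and N3. Null heart 4 was the highest of these and was the lowest of all hearts on the A probe set. Only 4 of 10 hearts exceeded the floor, and no genotype difference passed the test, with -0.14 ± 0.37 (SE) between null and wild-type hearts, -0.49 ± 0.34 (SE) between heterozygous and wild-type hearts and 0.35 ± 0.34 (SE) between null and heterozygous hearts.

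Calr, the lumenal calcium buffer, varied widely within genotypes. Probe set X56603_s_at read 7178, 9709, 15732, 10547 and 16281 in wild-type hearts 1, 2, 7, 9 and N1. It read 10209, 10445, 10024 and 13399 in heterozygous hearts 5, 6, 12 and N2, and 10838, 9068, 25874 and 16276 in null hearts 3, 4, 8 and N3. The 3 genotypes overlapped, and null heart 8 stood far above all others. The means were 11890 ± 3960 (SD, n = 5), 11019 ± 1600 (SD, n = 4) and 15514 ± 7560 (SD, n = 4) in wild-type, heterozygous and null hearts. The null minus wild-type difference was 0.33 ± 0.29 (SE, limma adjusted p = 0.9999), and it was 0.04 without null heart 8, 0.164 without wild-type heart 1, 0.548 without null heart 4 and 0.60 without the mostly blank arrays. The difference from heterozygous hearts was 0.38 ± 0.30 (SE, limma adjusted p = 0.8654), and it was 0.10 without null heart 8 and 0.601 without null heart 4.

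Asph had a low signal that was slightly higher in null hearts. Probe set AA269495_at read 1304, 1258, 1124 and 1080 in wild-type hearts 2, 7, 9 and N1, with a blank cell in wild-type heart 1. It read 1319, 1347, 1370 and 868 in heterozygous hearts 5, 6, 12 and N2, the last below the floor, and 1746, 1368, 1351 and 1604 in null hearts 3, 4, 8 and N3. All null hearts lay above all measured wild-type hearts, a pattern seen in 1.03% of the probe sets compared in this way, and they overlapped the heterozygous hearts. The null minus wild-type difference was 0.34 ± 0.17 (SE, 95% interval -0.02 to 0.71) with a limma p of 0.0646 and an adjusted p of 0.9999. Heterozygous hearts differed from wild-type hearts by 0.03 ± 0.17 (SE) and null from heterozygous hearts by 0.32 ± 0.17 (SE, limma adjusted p = 0.8042). The latter was 0.165 without heterozygous heart N2 and 0.166 without the mostly blank arrays, which include that of N2. The annotation places this probe set on the locus and does not tell hydroxylase from junctin or junctate.

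**Figure D2:**
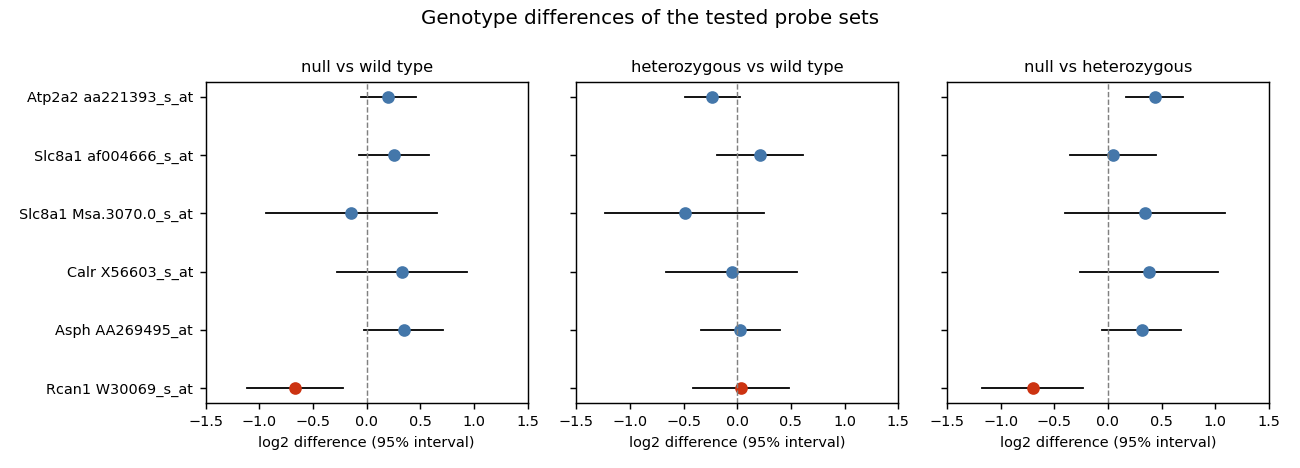
Log2 difference (horizontal axis) with its 95% interval for the 6 tested probe sets in the 3 genotype comparisons, from limma. The Rcan1 intervals lie below 0 in both comparisons of null hearts, the Atp2a2 interval lies above 0 against heterozygous hearts, and no adjusted p is below 0.05.

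In each genotype comparison 0 of the 6 probe sets passed limma's test at an adjusted p of 0.05. At an unadjusted p under 0.05 the counts were 1 between null and wild-type hearts (Rcan1), 0 between heterozygous and wild-type hearts, and 2 between null and heterozygous hearts (Atp2a2 and Rcan1). Over all 4494 probe sets the share called was 0.0223% (1 probe set), 0% and 0%, and 108, 152 and 260 probe sets had an unadjusted p under 0.05. The comparisons share hearts, so the values of a gene in one are not independent of those in another.

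The heart labels fall into the numbers 1 to 6, the numbers 7 to 12 and the N numbers, each with hearts of all 3 genotypes, and no label says what the numbers stand for. Hearts 7 to 12 and N, 7 in all, are called later-numbered here, a name that states no order or batch. They differed from hearts 1 to 6 in 321 probe sets, 7.14% of those tested. Of the 6 calcium probe sets, 2 were among these, those of Calr and Slc8a1 on the B arrays. Calr was higher in the later-numbered hearts, at 15450 ± 5290 (SD, n = 7) against 9575 ± 1320 (SD, n = 6), a log2 difference of 0.66 ± 0.17 (SE, limma adjusted p = 0.03276). This call was lost without null heart 4 (limma adjusted p = 0.08556), null heart 8 (0.06237), wild-type heart 1 (0.08239), 2 (0.06385), 7 (0.0638) or N1 (0.0542). It was also lost with quantile scaling (limma adjusted p = 0.05705), median scaling (0.08998), no filter (0.0699) or no mostly blank arrays (0.08092). The summed signal of the endothelial markers Eng, Kdr and Tie1 was also higher in the later-numbered hearts, at 28480 ± 4300 (SD, n = 7) against 18300 ± 3680 (SD, n = 6). So was the mesenchyme and matrix sum, at 48390 ± 7300 (SD, n = 7) against 40120 ± 6200 (SD, n = 6). The cardiomyocyte sum of Actc1 and Myl3 was 116700 ± 68600 (SD, n = 7) against 188600 ± 52900 (SD, n = 6). The part of these sums in the Calr difference was not tested. The B probe set of Slc8a1 was lower in the later-numbered hearts, where 0 of 5 exceeded the floor against 4 of 5 among hearts 1 to 6. For a fold, the later-numbered hearts were set to the floor and heart 6 was kept at 1076, below it. Mean log2 signal was then 0.663 (1.58-fold) higher in hearts 1 to 6, without adjustment for genotype. The probe set reached the 4 arrays over the floor needed for testing through those hearts alone, so its limma adjusted p of 0.04355 is given as a value and not as support. The A probe set of Slc8a1, with a difference of -0.01 ± 0.14 (SE), did not show it. Rcan1 differed by 0.34 ± 0.15 (SE, limma adjusted p = 0.1776), Atp2a2 by 0.04 ± 0.09 (SE) and Asph by -0.17 ± 0.14 (SE).

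Within each number range the null hearts had less Rcan1 signal than the wild-type hearts. The log2 difference was -0.38 in hearts 1 to 6 (2 null, 2 wild-type), -0.75 in hearts 7 to 12 (1 null, 2 wild-type) and -1.08 in hearts N (1 of each). Against heterozygous hearts it was -0.45, -1.03 and -0.87. The null hearts stayed near one level in the 3 ranges, and the wild-type and heterozygous means were higher in hearts 7 to 12 and N than in hearts 1 to 6. For wild-type hearts this rests on hearts 9 and N1, at 4592 and 5163, both on mostly blank B arrays. Wild-type heart 7, on a B array without blanks, read 3563, against 3516 in heart 2. The B array of null heart 3 was also mostly blank. A test of whether the null minus wild-type difference itself differed between later-numbered hearts and hearts 1 to 6, added after the values were seen, gave -0.48 ± 0.35 for Rcan1 (SE, limma p = 0.194, adjusted p = 0.9987), and 0% of all probe sets passed it.

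The Atp2a2 difference between null and wild-type hearts was 0.20, 0.20 and 0.21 in the 3 ranges, and that between null and heterozygous hearts was 0.35, 0.41 and 0.62. In hearts 1 to 6, wild-type heart 1 read 20293 on a mostly blank A array and wild-type heart 2 read 27754. Null hearts 3 and 4 read 28848 and 25923, on either side of heart 2. The A arrays of heterozygous hearts 6 and N2 were also mostly blank. With quantile scaling the null minus wild-type difference over all hearts was -0.05. Asph differed between null and wild-type hearts by 0.25, 0.18 and 0.57. For Calr the same difference was 0.25, 1.01 and 0.00, and the one null heart of the middle range was heart 8. The A probe set of Slc8a1 gave 0.33, 0.24 and 0.18. For Asph and this probe set, only 1 wild-type heart of hearts 1 to 6, heart 2, had a value. On the Slc8a1 probe set it read 9474, against 15566 in null heart 3 and 9084 in null heart 4.

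**Figure D3:**
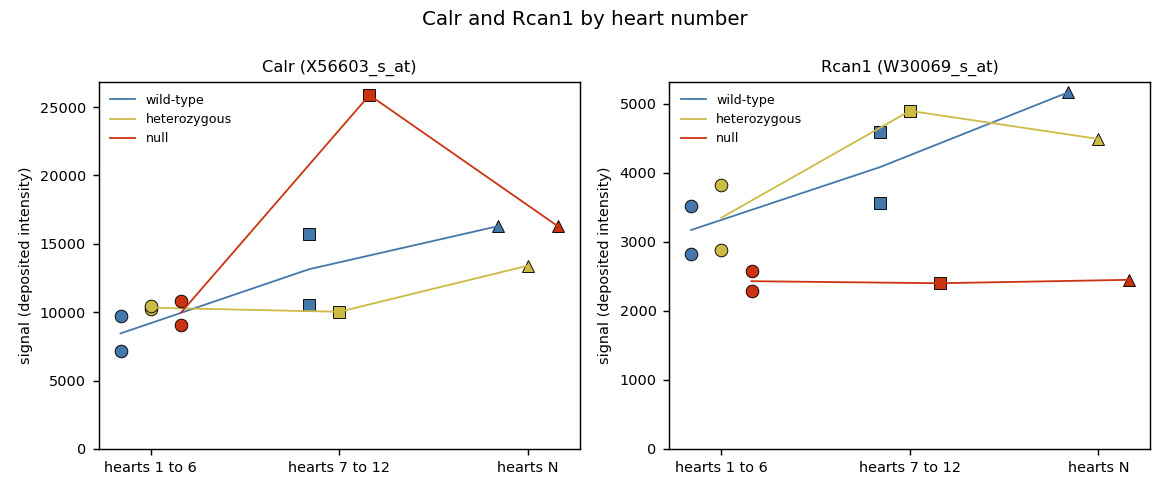
Deposited signal (vertical axis, linear intensity) of Calr and Rcan1 by heart number range and genotype; points are single hearts and lines join the genotype means. Rcan1 in null hearts stays between 2280 and 2575 in all ranges, and Calr in null heart 8 reaches 25874.

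A wider list of 85 genes of calcium transport, release, storage and calcium signalling, without the 5 genes above, placed these values among their pathway. Of these, 46 genes were annotated and 28 were tested on 34 probe sets. By limma 0 of 34 passed in each genotype comparison, and at an unadjusted p under 0.05 there were 0 between null and wild-type, 1 between heterozygous and wild-type and 5 between null and heterozygous hearts; over all probe sets the shares at that p were 2.4%, 3.38% and 5.79%. The median log2 differences were 0.02, -0.10 and 0.05, against -0.0063, -0.014 and 0.019 over all probe sets. In null hearts 17 probe sets were above and 17 below the wild-type hearts.

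Among calcineurin and NFAT genes, the relatives of Rcan1 by pathway, 2 of 8 probe sets were higher and 6 lower in null than in wild-type hearts, with a median of -0.12. In heterozygous against wild-type hearts 1 was higher and 7 were lower, with a median of -0.10. In null against heterozygous hearts 5 were higher and 3 lower, with a median of 0.055. Whether the group followed Rcan1 was not tested. Ppp3ca, a catalytic subunit of calcineurin, differed by 0.00 ± 0.24 (SE) and Ppp3cb, another, by -0.16 ± 0.22 (SE). Dyrk1a, a kinase that opposes NFAT, differed by -0.08 ± 0.19 (SE). The smallest unadjusted p of the whole list in this comparison was 0.0537, for Mef2d, a transcription factor that acts downstream of calcium signals, at -0.56 ± 0.27 (SE). It was followed by Akap1, an anchoring protein for kinases and phosphatases, at -0.23 ± 0.14 (SE), and Mef2c, another MEF2 factor, at 0.25 ± 0.15 (SE). A second Akap1 probe set gave 0.09 ± 0.14 (SE), and on each of them 1 of 4 null hearts exceeded the floor.

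Among genes of sarcoplasmic and endoplasmic reticulum pumps and release, which act beside Atp2a2 and Asph, 4 of 7 probe sets were higher and 3 lower in null hearts, with a median of 0.06. Ryr2, the cardiac calcium release channel, differed by 0.14 ± 0.23 (SE), and Casq2, the calcium store protein of the cardiac sarcoplasmic reticulum, by -0.51 ± 0.31 (SE). Casq2 had values in 2 wild-type and 3 null hearts only. Among chaperones and lumenal calcium binders, the group of Calr, 6 of 11 probe sets were higher and 5 lower, with a median of 0.06. Hspa5, the BiP chaperone, differed by 0.19 ± 0.13 and 0.23 ± 0.17 (SE) on its 2 probe sets, and Canx, the membrane-bound relative of Calr, by 0.16 ± 0.15, -0.15 ± 0.29 and 0.00 ± 0.22 (SE) on its 3. Among surface channels and sensors 1 of 2 was higher, and Cacna1c, the main L-type calcium channel subunit of the heart, differed by -0.20 ± 0.17 (SE).

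Between heterozygous and wild-type hearts the smallest unadjusted p values of the list were those of Pdia4, an oxidoreductase of the endoplasmic reticulum, at 0.94 ± 0.32 (SE), Rcn1, a lumenal EF-hand protein, at -0.79 ± 0.37 (SE), and Nfatc2, an NFAT factor, at -0.54 ± 0.25 (SE), each with values in 2 heterozygous hearts and a limma adjusted p of 0.9814. Between null and heterozygous hearts they were those of Pdia3, an oxidoreductase that works with calreticulin, at -0.69 ± 0.23 (SE), Rcn1 at 1.01 ± 0.37 (SE) and Mef2c at 0.40 ± 0.16 (SE), each with a limma adjusted p of 0.7744. Pdia3 had values in 2 heterozygous and 3 null hearts. On the Mef2c probe set 0 of 4 heterozygous hearts exceeded the floor, so its difference is one from the floor, and on that of Rcn1 1 of 2 did. In the later-numbered hearts 1 of 34 passed, against 7.14% of all probe sets. This was Mef2d, which was higher by 0.62 ± 0.17 (SE, limma adjusted p = 0.0383). This call was lost without heterozygous heart 12, null heart 4, 8 or N3, or wild-type heart 2, 7 or N1.

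**Figure D4:**
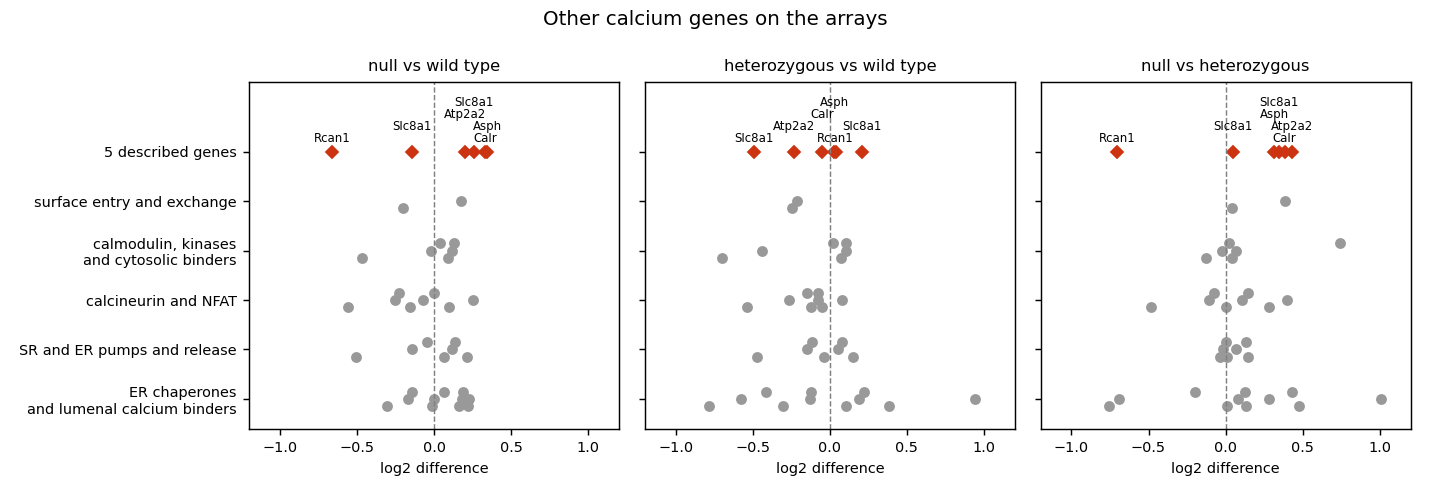
Log2 differences (horizontal axis) of the 34 tested probe sets of the wider calcium list by role (grey points) and of the 6 probe sets of the 5 described genes (red diamonds) in the 3 genotype comparisons. In both comparisons of null hearts Rcan1 lies at the low side, at -0.67 and -0.70, and no point passed the adjusted threshold.

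Across hearts, each of the 5 genes ran closest with different genes. For each gene, the nearest probe sets of other named genes were taken by Pearson's r of log2 signal over at least 10 hearts in which both exceeded the floor, from up to 1866 candidates, so high values are partly the product of choosing the largest. For Rcan1 they were Pbx3 (r = 0.88, 10 hearts) and Fbl (r = 0.835, 12 hearts). For Atp2a2 they were Pygb (r = 0.919, 10 hearts) and Etf1 (r = 0.822, 13 hearts), and for Calr they were Igsf8 (r = 0.909) and H1f10 (r = 0.892), both over 10 hearts. For the A probe set of Slc8a1 they were Fam136a (r = 0.943) and Naa15 (r = 0.883), and for Asph they were Tnni2 (r = 0.838) and Aldoa (r = 0.774), all over 10 hearts. Among the 5 genes themselves, Rcan1 ran against Asph (r = -0.727, 12 hearts) and Atp2a2 (r = -0.524, 13 hearts), and Atp2a2 ran with Asph (r = 0.604, 12 hearts) and Calr (r = 0.508, 13 hearts). The A probe set of Slc8a1 ran with Asph (r = 0.741, 10 hearts), its B probe set ran against Calr (r = -0.666, 10 hearts), and r between the 2 Slc8a1 probe sets was -0.77 over 7 hearts. The other pairs lay between -0.468 and 0.239. Pairs among the 5 genes used floored values and did not require both probe sets to exceed the floor. The B probe set of Slc8a1 exceeded it in 4 of 10 hearts and has the same floor value in the rest. Its r values therefore rest on few readable hearts and do not show that it ran against Calr or the A probe set. Probe sets on one array share that array's scaling and RNA, and genotype is part of the spread, so these are descriptions only.

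The tissue label was checked against markers. All 8 annotated cardiomyocyte marker genes were tested, and 0 of 4 liver, 0 of 3 lung and foregut and 0 of 3 neuron and glia genes exceeded the floor in 4 or more hearts. Of the other lists, 7 of 7 mesenchyme and matrix, 6 of 7 endothelial, 2 of 3 epicardial, 3 of 4 smooth muscle, 3 of 5 skeletal muscle, 4 of 5 erythroid and 2 of 4 leukocyte genes did. The liver sum (Afp and Alb) was 720 to 3358 in wild-type, 774 to 5867 in heterozygous and 400 to 1365 in null hearts. In whole hearts, fewer cells of a type and less RNA per cell cannot be told apart. The summed signal of the cardiomyocyte genes without blank cells (Actc1 and Myl3) was 50662 to 290491 in wild-type, 54397 to 169948 in heterozygous and 135537 to 241305 in null hearts. That of the endothelial genes Eng, Kdr and Tie1 was 17512 to 29764, 22071 to 34797 and 13036 to 31933. Null heart 8, the heart of highest Calr, was the highest null heart in this sum and also in the cardiomyocyte sum. Null heart 3 was the lowest null heart in the endothelial sum. The mesenchyme and matrix sum was 33958 to 52468, 43530 to 54790 and 33247 to 52700. On the B arrays, which carry Rcan1 and Calr, the Gapdh log2 ratio overlapped between genotypes, at -0.153 to 0.06 in wild-type, -0.221 to 0.01 in heterozygous and -0.10 to 0.08 in null hearts. The part of cell makeup and RNA quality in the differences above was not tested.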

How the data were processed

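The authors deposited 1 intensity value per probe set and array, on a linear scale, for 13 hearts on A and B arrays, and the software that made them is not given in the sources used here. From the values, arrays without blank cells had been scaled to a mean of 1500 between the 2 and 98 percentiles, and 10.1% to 29.5% of an array's values were negative. Blank cells were missing values, and 3 A and 3 B arrays lacked over 50% of them. The array number limits the precision. Noise was the root mean square of the negative values (443.5 on A, 686.4 on B), values below 2 times the noise were raised to that floor, and log2 was taken. Controls were left out. One fit per array design over all 13 hearts was made with limma 3.58.1 in R 4.3.3 (lmFit, eBayes with trend), two-sided, with Benjamini-Hochberg adjustment over the 4494 tested probe sets, and was tested on simulated data. Gene symbols came from the platform annotation through gene IDs (5551 of 5560 matched on A, 1993 of 2001 on B); promoters are RefSeq, GRCm38.p6, and had no entry used here for Atp2a2 or Asph. No heart number recurs between genotypes, so nothing is paired. Named beside the 5 genes are the calcium genes past the threshold, the 3 with the smallest p in each genotype comparison, and for each of the 5 genes the 2 most like it; other genes of the list were named after their values were seen, to show a role. The genes, lists and tests were chosen with earlier results of these data known. Alternatives changed scaling, floor, filter, trend, arrays, hearts and blocks.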

Additional observations from a re-analysis of the deposited data

Results flagged for a closer look

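In 15 groups of 4 or 5 hearts with tested probe sets, 1 heart was checked for lying apart from the rest of its genotype. The measure was the gap to its nearest neighbour over the group's range, both on log2 signal after the floor was applied. Chance alone gives about 5%. All 3 such values came from heterozygous hearts. Calr X56603_s_at in heterozygous heart N2 was 13399, with 0.858 of the range as its gap. Asph AA269495_at in heterozygous heart N2 was 868, below the floor and so raised to it, with a gap of 0.913. The B probe set of Slc8a1 in heterozygous heart 5 was 1892, the one heterozygous heart above its floor. The 3 others were raised to the same floor, which by itself sets this heart apart, so that value is not to be read against the 5%.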

How the results depend on the processing

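No paired analysis was possible because the genotypes share no heart number. Under every alternative run, 0 calcium cycling probe sets were called between genotypes. Rcan1 kept its direction in both comparisons of null hearts, at -0.777 to -0.396 against wild-type and -0.853 to -0.59 against heterozygous hearts; adjusted p stayed at or above 0.9834 and 0.3219. Quantile scaling without mostly blank arrays was chosen after seeing the data. Probe sets at the floor in every heart have no spread and stayed out of the fit without a filter.

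Over all probe sets, calls between null and wild-type hearts (1 as reported) were 2 with quantile scaling, a floor at 1 times the noise, the generalised log2 or only the compared groups, 3 with number range as a block, 0 with median scaling, no filter, no mostly blank arrays or both quantile scaling and no such arrays, and 0 to 3 without single hearts; the block gave 1 between null and heterozygous hearts. Later-numbered hearts against hearts 1 to 6 (321) gave 204 with quantile scaling, 198 with no filter and 192 without mostly blank arrays. Quantile scaling without such arrays gave 157. Without single hearts the calls were 103 to 342 (103 without wild-type heart 2, 104 without null heart 4). The calcium list's 1 call there became 0 with quantile scaling, no filter or the removal of any 1 of 7 single hearts (range 0 to 1). The 2 calls of the described genes there became 1 with median scaling, where Calr was the one lost. They became 1 with a floor at 1 times the noise, the generalised log2 or no variance trend, where Calr was the one kept. With quantile scaling, no filter, no mostly blank arrays or both quantile scaling and no such arrays they became 0, and 0 to 2 without single hearts. Without null heart 4, heterozygous heart 5 or wild-type heart 1 or 2 fewer than 4 arrays exceeded the floor for the B probe set of Slc8a1, so it was not tested there.

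Signs turned in these differences, none past the threshold. For Atp2a2, null minus wild-type was -0.0455 and null minus heterozygous -0.0163 with quantile scaling. Its difference of later-numbered hearts from hearts 1 to 6 was -0.0729 with that scaling and -0.0202 without mostly blank arrays. Without single hearts it was -0.0325 to 0.0907. For Calr, heterozygous minus wild-type was 0.0853 without mostly blank arrays, 0.00802 with the block, 0.0199 with quantile scaling without such arrays and -0.218 to 0.0772 without single hearts. For Rcan1 it was -0.023 with median scaling and -0.0754 to 0.187 without single hearts, and for Asph -0.0299 to 0.179 without single hearts. For the A probe set of Slc8a1, later-numbered hearts minus hearts 1 to 6 was 0.0184 and 0.0196 with quantile scaling on all and on the fuller arrays. Without single hearts it was -0.138 to 0.132. For this Slc8a1 probe set, null minus heterozygous was -0.0255 with median scaling and -0.0957 to 0.163 without single hearts. For its B probe set, null minus wild-type was 0.0979 with the block and -0.447 to 0.0871 without single hearts. The cause was not tested.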
